A study of Homo sapiens with 26 samples.

Results

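The binding of FOXA1 was compared with that of FOXA1dbd, the construct that holds the DNA-binding domain alone, over the whole genome of BJ cells. All 155652 peaks of the deposited FOXA1 list and all 28831 peaks of the FOXA1dbd list were used, which is 184483 of the 399567 peaks in the 5 full lists of the series. A FOXA1 peak was called kept when a FOXA1dbd peak shared at least 1 bp with it. BJ is an established line of human foreskin fibroblasts, and each HALO-tagged protein was expressed in it ectopically for 48 h before formaldehyde fixation, sonication and immunoprecipitation through that tag, followed by sequencing (ChIP-seq). The labels name 2 ChIP and 2 input libraries for FOXA1, FOXA1dbd, the variants FOXA1nhaa and FOXA1rraa, and HNF4A, and they do not spell out the variants' changes. FOXA1nhaa and HNF4A were used here as further readouts at the same sites, and samples of tagged histone H2B were left aside. All groups shared the cell line, the tag and the antibody. Each construct had 1 full peak list, so no replicate error could be computed, no test was made, and every interval below is a 95% Wilson interval for counting error over peaks alone. The lists give no read depth, so fewer FOXA1dbd peaks and shallower FOXA1dbd libraries cannot be told apart.

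FOXA1 is a forkhead transcription factor of liver, prostate, breast and other endodermal or hormone-responsive tissues. Its winged-helix DNA-binding domain reads a short A-rich motif and resembles linker histone in fold, and FOXA factors are called pioneer factors because they can engage their motif in closed chromatin. The parts of the protein outside this domain include transactivation regions and a C-terminal region that contacts core histones. AP-1, a dimer of FOS, JUN or ATF proteins, binds many of the enhancers that are open in fibroblasts.

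The sequences below show what the motif letters look like at the sites compared. The first 6 are the central 200 bp of the highest-scoring FOXA1 peaks that held a forkhead core, lay outside exons and were either kept or not kept, in GRCh37 (hg19) coordinates. Capitals mark the forkhead core, TGTTTAC or TATTTAC, or its reverse complement, GTAAACA or GTAAATA.
kept, near SH2D1B (chr1:162388045-162388244, + strand): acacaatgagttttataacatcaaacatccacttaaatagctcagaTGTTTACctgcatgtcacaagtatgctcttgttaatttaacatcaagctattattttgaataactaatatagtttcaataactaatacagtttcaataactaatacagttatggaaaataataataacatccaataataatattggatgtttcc
kept, DDAH1 intron (chr1:85993559-85993758, + strand): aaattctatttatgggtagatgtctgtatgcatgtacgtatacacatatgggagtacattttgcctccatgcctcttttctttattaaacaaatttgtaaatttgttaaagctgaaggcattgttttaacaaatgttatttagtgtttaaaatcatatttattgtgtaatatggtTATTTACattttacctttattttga
kept, TBC1D4 intron (chr13:76041307-76041506, + strand): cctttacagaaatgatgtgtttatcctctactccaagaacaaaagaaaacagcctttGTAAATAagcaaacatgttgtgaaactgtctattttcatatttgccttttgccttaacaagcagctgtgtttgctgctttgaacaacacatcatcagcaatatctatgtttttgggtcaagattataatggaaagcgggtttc
not kept, DAB1 and OMA1 intron (chr1:58965344-58965543, + strand): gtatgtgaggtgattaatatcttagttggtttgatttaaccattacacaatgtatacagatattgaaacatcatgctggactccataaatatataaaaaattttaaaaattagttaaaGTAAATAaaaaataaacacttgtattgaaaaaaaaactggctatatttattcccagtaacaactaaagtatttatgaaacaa
not kept, TYW1B intron (chr7:72237913-72238112, + strand): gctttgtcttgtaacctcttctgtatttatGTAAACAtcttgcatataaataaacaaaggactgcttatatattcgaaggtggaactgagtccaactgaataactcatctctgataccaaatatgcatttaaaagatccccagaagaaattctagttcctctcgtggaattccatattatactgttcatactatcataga
not kept, near C4orf51 (chr4:146591727-146591926, + strand): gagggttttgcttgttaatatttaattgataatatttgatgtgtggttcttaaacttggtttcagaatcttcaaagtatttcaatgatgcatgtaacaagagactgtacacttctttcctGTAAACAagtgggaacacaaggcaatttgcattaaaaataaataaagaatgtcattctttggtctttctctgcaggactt
Each of these 6 windows held 1 forkhead core of the letters above and no canonical AP-1 core (TGACTCA). Related letters such as TGTTTGC and TGTTTAT were not counted here. Each peak also met a FOXA1nhaa peak. The 3 kept peaks had authors' scores of 1082, 1035 and 1027, and the 3 that were not kept had 809, 789 and 781. The GC content was 26.0, 26.5 and 35.5% in the kept windows and 23.5, 33.5 and 32.0% in the others. Both sets were A/T-rich, and all 6 windows have a core because they were chosen for it.

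A pair of FOXA1dbd peaks outside the FOXA1 list is shown next because they mark the opposite case, sites that only the truncated construct's list holds. Capitals again mark the forkhead core.
FOXA1dbd only, nearest SHCBP1 (chr16:46496366-46496565, + strand): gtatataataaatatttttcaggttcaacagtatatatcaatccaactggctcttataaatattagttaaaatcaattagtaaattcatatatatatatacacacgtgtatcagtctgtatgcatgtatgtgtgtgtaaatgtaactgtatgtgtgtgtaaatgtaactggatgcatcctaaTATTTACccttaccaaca
FOXA1dbd only, nearest CNTN5 (chr11:98731237-98731436, + strand): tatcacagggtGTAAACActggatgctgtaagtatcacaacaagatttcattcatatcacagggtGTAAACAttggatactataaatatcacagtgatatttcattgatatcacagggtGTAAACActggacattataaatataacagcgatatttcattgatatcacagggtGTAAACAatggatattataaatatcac
The window nearest to CNTN5 held 4 forkhead cores in a repeated unit, and its authors' fold enrichment was 9.79. The window nearest to SHCBP1 held 1 core at a fold enrichment of 4.65.

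The last pair shows kept peaks with 2 or more canonical AP-1 cores. Among the motifs counted singly, this class had the highest kept share, 57.7%. It made up 1.12% of kept peaks and 0.172% of the others. Capitals mark the canonical AP-1 core TGACTCA, its reverse complement TGAGTCA, and the forkhead core. This pair was chosen after the values were seen.
kept with AP-1 cores, near ZNF608 (chr5:124085939-124086138, + strand): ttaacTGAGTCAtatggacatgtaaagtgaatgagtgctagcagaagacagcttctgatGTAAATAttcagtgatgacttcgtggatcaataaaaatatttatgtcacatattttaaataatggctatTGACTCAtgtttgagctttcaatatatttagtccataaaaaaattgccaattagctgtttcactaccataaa
kept with AP-1 cores, near C2CD4A (chr15:62402889-62403088, + strand): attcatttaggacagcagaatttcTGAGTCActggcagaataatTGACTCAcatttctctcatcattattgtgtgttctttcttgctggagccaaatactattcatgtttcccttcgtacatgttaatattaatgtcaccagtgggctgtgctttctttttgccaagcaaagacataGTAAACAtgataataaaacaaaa
Both windows held 2 canonical AP-1 cores and 1 forkhead core, and the peaks scored 578 and 532, below all 6 peaks of the first set. They lay 1539 bp from the start of ZNF608 and 43813 bp from that of C2CD4A, the nearest coding starts.

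The truncated construct's list kept a minority of the FOXA1 sites and held few others. FOXA1dbd overlapped 26955 of 155652 FOXA1 peaks, 17.3% (17.1 to 17.5), and 128697 were not kept. In the other direction 27736 of 28831 FOXA1dbd peaks lay on a FOXA1 peak, 96.2% (96.0 to 96.4). With centres within 200 bp in place of 1 shared bp, the shares were 16.2 and 88.4%. The FOXA1 list covered 54.6 Mb with a median width of 300 bp and the FOXA1dbd list 6.77 Mb with 217 bp.

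Part of the overlap came with the way the rows were delimited. Of the FOXA1dbd peaks 12831, 44.5% (43.9 to 45.1), began or ended at exactly the base where a FOXA1 peak did, and 2952 shared both edges. Only 101 (0.350%) had an edge at an edge of FOXA1nhaa, whose list is also long. All 2581 FOXA1dbd rows whose stated summit lay outside the row had an edge at a FOXA1 edge. Rows of this kind lie on FOXA1 peaks by construction, and among the 16000 FOXA1dbd peaks without such an edge 93.2% (92.7 to 93.5) overlapped FOXA1. Whether the authors trimmed the list against FOXA1 peaks is not stated in the sources used here. By the prefix of the peak name, 25882 FOXA1dbd rows were IP1, 2627 IP3 and 322 WT_FOX. All 322 WT_FOX rows lay on FOXA1 peaks, and 93.5% of them had an edge at a FOXA1 edge. Their median score was 199.5, against 61 for all FOXA1dbd rows. What the prefixes stand for is not stated either. With IP1 rows alone 15.6% of FOXA1 peaks were kept.

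Kept peaks were the stronger ones in the authors' score. The median score was 172 (quartiles 107 and 268) for kept peaks and 116 (75 and 180) for the others, and the median width was 390 against 285 bp. From the lowest to the highest quintile of FOXA1 scores the kept share was 9.31, 11.4, 14.7, 19.4 and 31.8%. Most of the strongest FOXA1 peaks therefore still had no FOXA1dbd peak. For this reason many of the shares below are given with the share expected from score and width, that is, the mean kept share of FOXA1 peaks of the same score decile and width quintile.

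The strongest kept peak (score 1518) was intergenic, at chr3:46948550-46949919, 5146 bp from the start of PTH1R, the parathyroid hormone receptor gene. The next were in introns of KANSL1 (1177), a subunit of a histone acetyltransferase complex, and PCID2 (1145). Among the strongest peaks that were not kept were those in introns of RPF1 (925) and KIF13B (840). Between genes lay a peak (904) whose nearest coding start, that of SLC6A15, was 32507 bp away. Another (843) lay 128382 bp from its nearest coding start, that of DUSP10. All 4 of these strong FOXA1 sites without FOXA1dbd overlapped FOXA1nhaa, and none held a forkhead or AP-1 core in its central 200 bp. These traits did not set them apart from the kept peaks named here. Each of those also overlapped FOXA1nhaa, and the peaks at PTH1R and PCID2 held neither core.

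AP-1 cores marked the FOXA1 peaks that the DNA-binding domain kept. An AP-1 core (TGANTCA, both strands) lay in the central 200 bp of 23276 FOXA1 peaks, and 28.4% of them (27.9 to 29.03) were kept, against an expected 17.1% and against 15.4% of peaks without one. With 2 or more cores the share was 47.4% (45.0 to 49.7) of 1767 peaks. The core is found in 6.27% of 200 bp tiles of the genome, in 12.9% of FOXA1 peaks not kept and in 24.6% of those kept.

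Both forms of the core went with a higher share, to different degrees. The canonical core with C or G at its centre, TGACTCA, was kept in 33.7% (32.9 to 34.5) of 12444 peaks, and the form with A or T there, TGAATCA, in 24.2% (23.4 to 24.99) of 11647. Peaks with 2 or more canonical cores were kept in 57.7% (53.5 to 61.9) of 523 cases, and those with 2 or more of the other form in 38.7% (34.5 to 43.1) of 491. The intervals of both pairs lie apart. The split by centre base was added after the values were seen.

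The AP-1 difference was present at every level of FOXA1 score. In the lowest quintile of scores the kept share was 8.35% without a canonical core, 19.7% with 1 and 40.4% (31.6 to 49.8) with 2 or more. In the highest quintile it was 29.8, 53.7 and 81.2% (73.2 to 87.2). A weak FOXA1 peak with 2 cores was thus kept more often than a strong one with none. The median score was 124 for peaks with no or 1 canonical core and 128 for those with 2 or more.

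**Figure D1:**
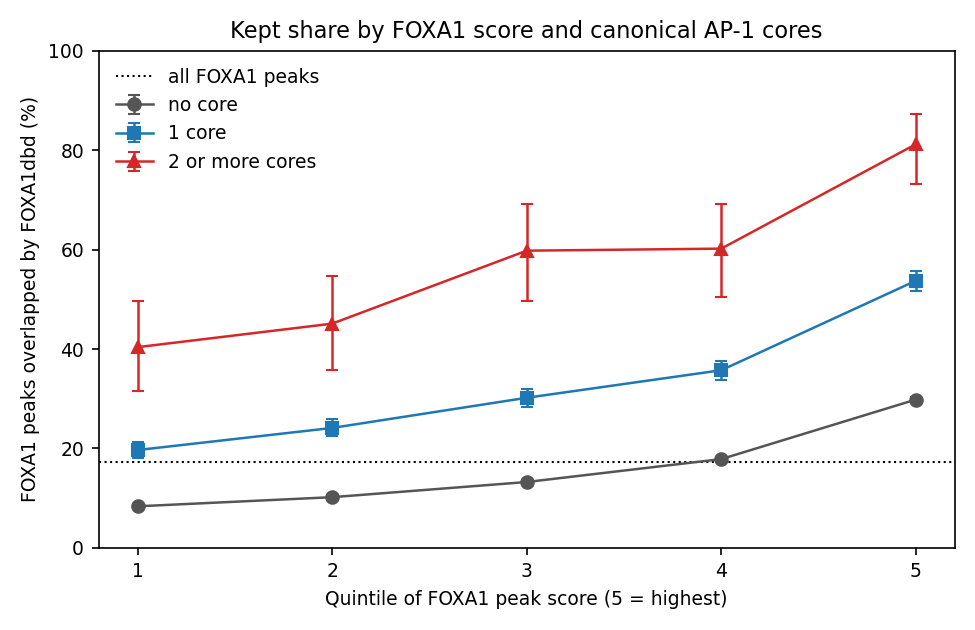
Share of FOXA1 peaks overlapped by FOXA1dbd (vertical axis, percent) against the quintile of FOXA1 peak score (horizontal axis), for peaks with no, 1, or 2 or more canonical AP-1 cores in the central 200 bp. Bars are 95% Wilson intervals and the dotted line is the share of all FOXA1 peaks, 17.3%; the 3 lines do not cross, and peaks with 2 or more cores rise from 40.4 to 81.2%.

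Base composition moved with the AP-1 cores and was examined beside them. From the lowest to the highest quintile of GC content in the central 200 bp, the kept share was 15.1, 14.6, 15.4, 17.9 and 23.7%. Within the lowest quintile peaks without a canonical core were kept in 14.8% and peaks with 1 core in 19.8% (17.8 to 21.99). Within the highest quintile the values were 20.8 and 41.7% (40.1 to 43.2). The difference by AP-1 core was therefore present at low and high GC, and its size was larger at high GC.

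The forkhead core itself set kept peaks apart much less. Of 28326 FOXA1 peaks with a forkhead core 20.1% (19.7 to 20.6) were kept, against 16.7% (16.5 to 16.9) of the 127326 without one. With 2 or more cores the share was 25.9% (24.4 to 27.5) of 3104 peaks, against an expected 17.8%. The core occurs in 7.29% of genome tiles, in 17.6% of FOXA1 peaks not kept and in 21.2% of those kept. In the highest quintile of scores the shares were 30.6% without a core, 35.8% with 1 and 43.6% (40.02 to 47.2) with several. The related letters TGTTTGC and TGTTTAT were counted apart, and peaks with these alone are among those without a forkhead core. They lay in 19.9% of FOXA1 peaks, of which 18.9% (18.45 to 19.3) were kept. With 2 or more of them the share was 22.2% (20.8 to 23.6).

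Both cores together gave the following pattern. Peaks with neither a forkhead nor a canonical AP-1 core, 116751 in number, were kept in 15.2%. Several forkhead cores without AP-1 gave 25.4% (23.9 to 27.0), and 1 canonical AP-1 core without a forkhead core gave 32.3% (31.4 to 33.2). Peaks with 1 of each were kept in 34.7% (32.4 to 37.0). A canonical AP-1 core without TGTTTAC or TATTTAC thus went with a higher kept share than several of these forkhead cores did. The related forkhead letters were not part of this split.

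At the centre of the peaks the same 2 motifs were counted within 50 bp and compared with the flanks at 451 to 500 bp. Rows whose stated summit lay outside the row were left out, which removed 2581 FOXA1dbd rows, all of them on FOXA1 peaks. In FOXA1dbd peaks, centred on the summit, a canonical AP-1 core lay near the centre in 11.4% (10.98 to 11.7) of 26250 peaks, 6.03 times the flank. A forkhead core lay there in 14.5% (14.0 to 14.9), 3.13 times the flank. In FOXA1 peaks, whose list gives no summit and which were centred on the midpoint, the values were 4.51% and 2.85 times for AP-1 and 10.7% and 2.31 times for forkhead. FOXA1nhaa gave 4.05% and 2.43 times for AP-1, and 7.57% and 1.64 times for forkhead. HNF4A, which has no forkhead domain, gave 10.1% and 5.61 times for AP-1, and 1.57% and 0.597 times for forkhead. By these shares the FOXA1dbd list had the forkhead core of a FOXA protein and an AP-1 share near that of HNF4A. Summits and midpoints locate a motif with different precision, which limits the comparison with FOXA1.

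**Figure D2:**
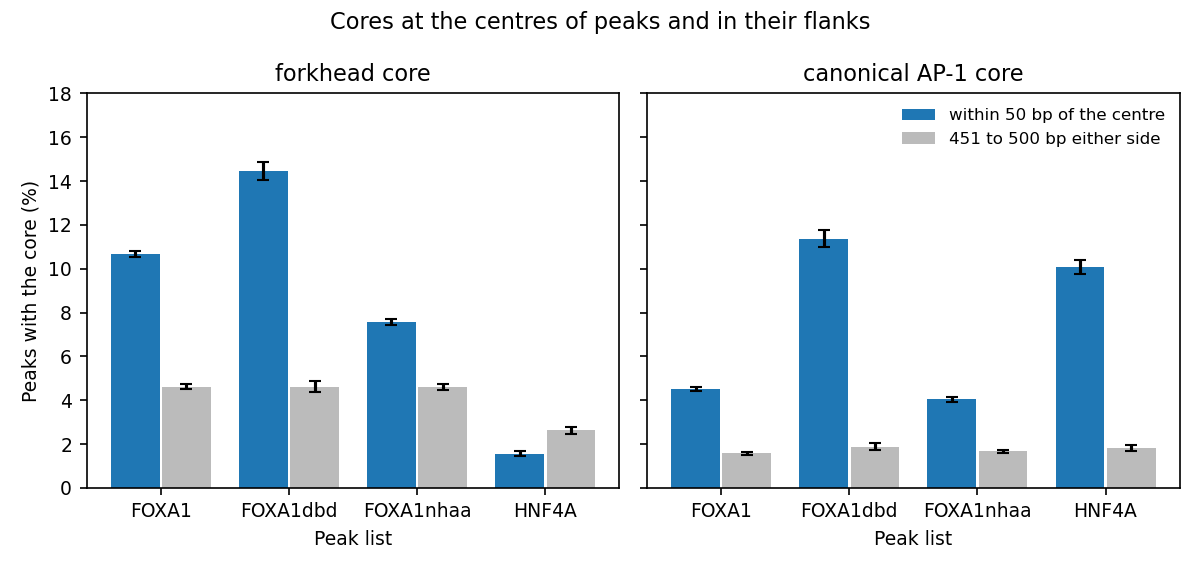
Share of peaks (vertical axis, percent) with a forkhead core (left) and a canonical AP-1 core (right) within 50 bp of the peak centre, blue, and 451 to 500 bp to either side, grey, for 4 peak lists; bars start at 0 and carry 95% Wilson intervals. FOXA1dbd has the tallest central bar for both cores, 14.5 and 11.4%, and HNF4A has 10.1% for AP-1 but 1.57% for forkhead. Rows whose stated summit lay outside the row are left out.

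The authors' fold enrichment differed little between FOXA1dbd peaks with and without these cores. Over the rows of the most frequent peak name prefix its median was 5.17 without a canonical AP-1 core, 5.34 with 1 and 5.48 with several. It was 5.18 without a forkhead core and 5.36 with several. These are the authors' values for single peaks, and their quartiles, 4.40 and 6.13 without AP-1 and 4.51 and 6.69 with several cores, overlap widely.

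FOXA1 sites that HNF4A also occupied were kept far more often. HNF4A is a nuclear receptor of liver and gut, and here it was expressed in the same fibroblasts with the same tag. Of the 2609 FOXA1 peaks that an HNF4A peak overlapped, 1294 were kept, 49.6% (47.7 to 51.5), against an expected 18.7% and against 16.8% of the others. The difference was present without AP-1 cores, where HNF4A-overlapped peaks were kept in 45.3% (43.0 to 47.6), and with them, where the share was 59.4% (55.9 to 62.8). Peaks with an AP-1 core and no HNF4A were kept in 27.4%, and peaks with neither in 14.9%. By position the HNF4A-overlapped peaks were kept in 41.7% at promoters, 50% in introns and 56.8% between genes. Of the 406 FOXA1 peaks with the HNF4 core CAAAGTCCA 17.0% (13.7 to 20.95) were kept, and this interval holds the share of all peaks.

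FOXA1nhaa gave a smaller difference. FOXA1 peaks that FOXA1nhaa overlapped, 61836 in number, were kept in 25.8% (25.5 to 26.2), against an expected 21.1%, and the others in 11.7%. FOXA1nhaa overlapped 44.2% of the FOXA1 peaks with an AP-1 core and 39.7% of all, and 37.6% of those with a forkhead core against 40.2% of those without. All 4 constructs share the tag and the antibody, and no list of tag-only signal was used here.

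By position in genes the kept share moved within a narrow range. It was 18.4% (17.7 to 19.02) for 13800 FOXA1 peaks within 1000 bp of an annotated transcription start, 16.8% (16.6 to 17.0) for 100592 intronic peaks and 18.8% (18.4 to 19.2) for 33233 peaks between genes. The shares expected from score and width were 17.4, 17.5 and 16.6%. The 847 peaks in coding exons had the lowest share, 12.3% (10.2 to 14.7), against an expected 17.96%. Other exons gave 16.1% (15.3 to 17.0) against an expected 18.4%. Within 100 bp of a start the share was 20.6% (18.5 to 22.8) of 1365 peaks. At promoters the share was above that of all peaks, but with only the upper 50% of FOXA1dbd peaks by score it was 8.39% against 8.78% overall.

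FOXA1 sites outside protein-coding genes were kept more often than those inside. Inside protein-coding genes 16.5% (16.2 to 16.7) were kept against an expected 17.7%. In other annotated genes only, mostly noncoding, 19.3% (18.7 to 19.9) were kept against 16.7% expected, and outside every gene 18.8% (18.4 to 19.2) against 16.6%. In gene deserts, over 500 kb from any protein-coding start, the share was 18.5% (17.5 to 19.5) against 16.5%. Gene length made little difference, with 16.9% in genes under 50 kb and 16.5% in genes of 500 kb or more.

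CpG-rich sequence, the kind found in CpG islands, held almost no kept site. Only 71 FOXA1 peaks had a central 500 bp with at least 55% GC and a CpG ratio of at least 0.6, and 1 of them was kept, 1.41% (0.249 to 7.56), against an expected 10.9%. HNF4A overlapped 36.6% of these 71 peaks and FOXA1nhaa 7.04%.

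Larger domains gave graded differences. From the most GC-poor to the most GC-rich quintile of the surrounding 100 kb, the kept share was 15.7, 16.3, 17.3, 18.03 and 19.2%, while the share expected from score and width was between 16.6 and 17.7% throughout. By the number of other FOXA1 peaks within 50 kb, the share was 18.7% in the sparsest quintile and 16.1% (15.7 to 16.5) in the densest. Expected shares ran the other way, from 15.7 to 18.5%. Domains crowded with FOXA1 peaks thus had the lower kept share and the higher expected one. An AP-1 core lay in 17.4% of the peaks of the sparsest quintile and in 11.5% of those of the densest. Whether this bears on their kept shares was not tested.

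**Figure D3:**
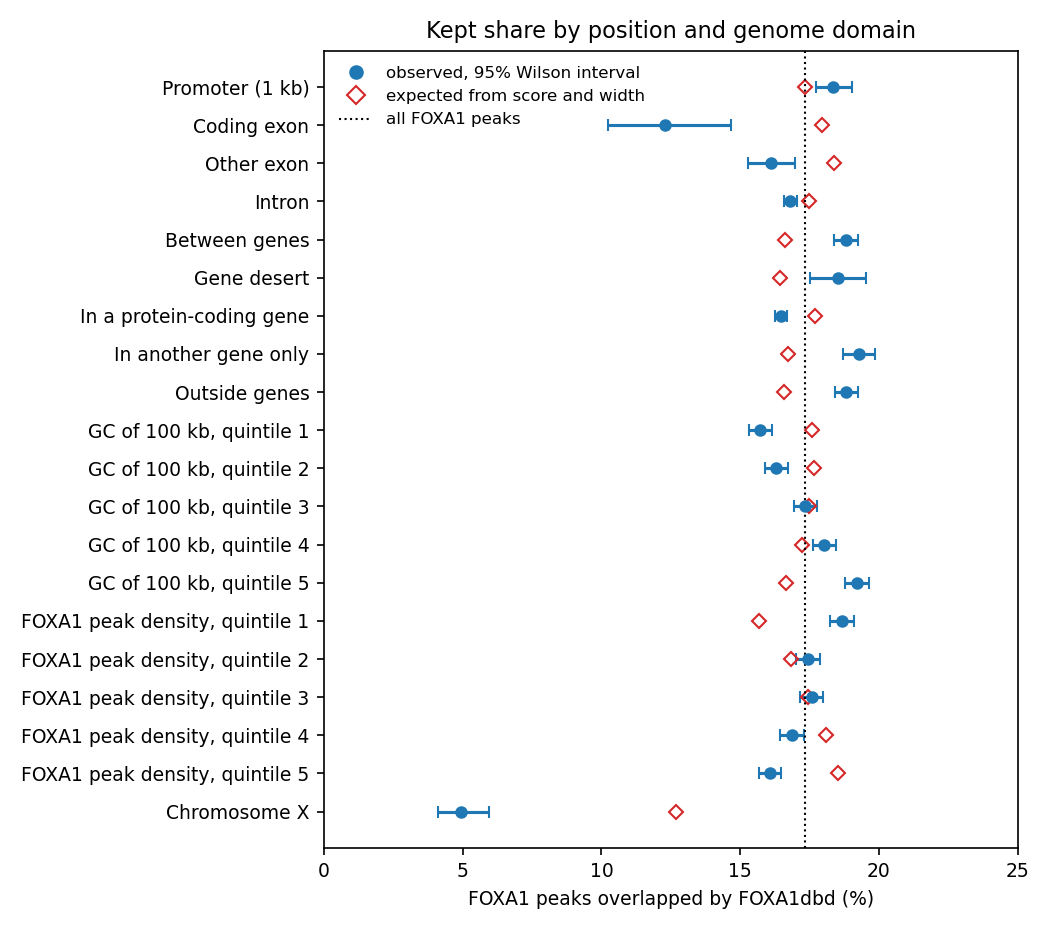
Share of FOXA1 peaks overlapped by FOXA1dbd (horizontal axis, percent) by position, by quintiles of GC content and of FOXA1 peak density, and on chromosome X. Filled circles are observed shares with 95% Wilson intervals, open diamonds the shares expected from score and width, and the dotted line all peaks; most classes lie between 15 and 20%, while coding exons (12.3%) and chromosome X (4.95%) lie below.

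Chromosome X had a far lower kept share than any of chromosomes 1 to 22. Over chromosomes 1 to 22 together 17.5% of the FOXA1 peaks were kept, from 15.6% (14.6 to 16.6) on chromosome 13 to 18.7% (17.9 to 19.6) on chromosome 10. The interval of chromosome 13 lay below the share of all peaks, and those of chromosomes 8, 10 and 12 lay above it. On chromosome X 110 of 2222 were kept, 4.95% (4.12 to 5.93), against an expected 12.7%. In the lowest quintile of FOXA1 score 2.63% (1.69 to 4.07) of the X peaks were kept, against 9.49% on chromosomes 1 to 22 and an expected 8.98%. In the highest quintile, with 77 X peaks, the share was 20.8% (13.2 to 31.1) against 31.8% on chromosomes 1 to 22, but this interval holds the 26.3% expected from score and width. In the other 4 quintiles the interval lay below the expected share. FOXA1nhaa overlapped 15.6% of the X peaks and 40.1% of those on chromosomes 1 to 22. FOXA1 peaks on X were narrower, with a median width of 240 against 301 bp. The lists give no copy number, and whether the copy number of X in these cells bears on its shares was not tested.

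Genes with at least 20 FOXA1 peaks ranged from no kept site to a kept share of 50%. Of 20163 protein-coding genes 12518 had a FOXA1 peak in the gene or within 5 kb, and 7021 had a kept one. Among the 1674 genes with at least 20 FOXA1 peaks the median kept share was 15.9% (quartiles 11.1 and 20.8), and 28 had none kept. The interval lay wholly above the overall share in 67 genes, 4%, and wholly below it in 75, 4.48%, so most genes did not stand apart. The genes named next are the tails of that distribution.

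The highest gene by its lower bound was ITGB1, the integrin beta 1 subunit of most matrix receptors (chr10:33176201-33294720, - strand). FOXA1 had 44 peaks there and 20 were kept, 45.5% (31.7 to 59.9), against an expected 20.1%. The kept peaks had a median score of 240 and the others of 97.5. FOXA1nhaa overlapped 52.3% of the peaks, HNF4A 1 peak, and an AP-1 core lay in 2.273% of them. CCDC7, a coiled-coil protein gene whose end lies 4.40 kb from that of ITGB1 (chr10:32735068-33171802), had 37 FOXA1 peaks and none kept, 0% (0 to 9.41). Its median FOXA1 score was 124, an AP-1 core lay in 13.5% of its peaks and FOXA1nhaa overlapped 18.9%. Of the 80 FOXA1 peaks over both genes all 20 kept ones belonged to the ITGB1 side. The AP-1 shares of these neighbours run against the genome-wide pattern. The pairing was noted after the values were seen.

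The other 9 genes with the highest lower bounds had kept shares from 40.6 to 50%, against expected shares from 13.7 to 23.6%. CDH11, a cadherin of mesenchymal cells, had 11 of 24 peaks kept (45.8%). RND3, a small GTPase that loosens actin fibres, had 12 of 27 (44.4%), and DNMBP, an exchange factor for the GTPase CDC42, had 10 of 20 (50%). RTN4, which shapes the endoplasmic reticulum, had 18 of 43 (41.9%). TIPARP, an ADP-ribosyltransferase of the dioxin response, had 10 of 21 (47.6%), and PDE4DIP, a centrosome and Golgi scaffold, 15 of 33 (45.5%). PDE1C, a calcium-dependent phosphodiesterase, had 13 of 32 (40.6%), PLPPR5 had 9 of 21 (42.9%) and an unnamed locus on chromosome 6 had 10 of 23 (43.5%). In these genes the FOXA1nhaa overlap ran from 34.4% in PDE1C to 65.1% in RTN4, against 39.7% over all FOXA1 peaks. In RND3 and PDE4DIP the kept peaks did not score higher than the others, with medians of 147 against 153 and 125 against 134.

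Genes at the low end fell into a group on chromosome X and a group elsewhere. On X, DIAPH2, a formin that builds actin filaments, kept 1 of 62 peaks (1.61%, up to 8.59%), MID1, a ubiquitin ligase, kept none of 30, and an unnamed locus kept 1 of 50. Elsewhere, NEGR1, a neuronal cell adhesion gene (chr1:71861626-72748222), kept 21 of 318 peaks, 6.60% (4.36 to 9.88), against an expected 17.4%. Its FOXA1 peaks lay at 35.5 per 100 kb, against a median of 16.6 over the 1674 genes, and their median score of 116 was close to that of all peaks. PRMT3, an arginine methyltransferase, kept none of 29 and MRPS28, a mitochondrial ribosomal protein gene, none of 28. IFIH1, the sensor MDA5 of viral RNA, and SETD2, which methylates histone H3 at lysine 36, kept none of 27 each. In these 4 genes FOXA1nhaa overlapped between 34.5% (PRMT3) and 42.9% (MRPS28) of the peaks, close to the share over all peaks. In CCDC7 and the 3 X genes, by contrast, FOXA1nhaa overlapped from 10 to 18.9%. The intervals of the 3 X genes hold the 4.95% kept over all of chromosome X, so they did not stand apart from their chromosome.

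The most kept peaks by number were found in long genes. PRKG1, the kinase activated by cyclic GMP, kept 34 of 190, ASCC3, a helicase, 32 of 166, and RBMS3, an RNA-binding protein gene, 29 of 214. GPC6, a glypican of the cell surface, kept 29 of 128 (22.7%). RUNX1, a transcription factor of blood and mesenchymal cells, kept 29 of 110, 26.4% (19.03 to 35.3), against an expected 17.2%. Among these 5 the interval of RUNX1 alone lay above the overall share.

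**Figure D4:**
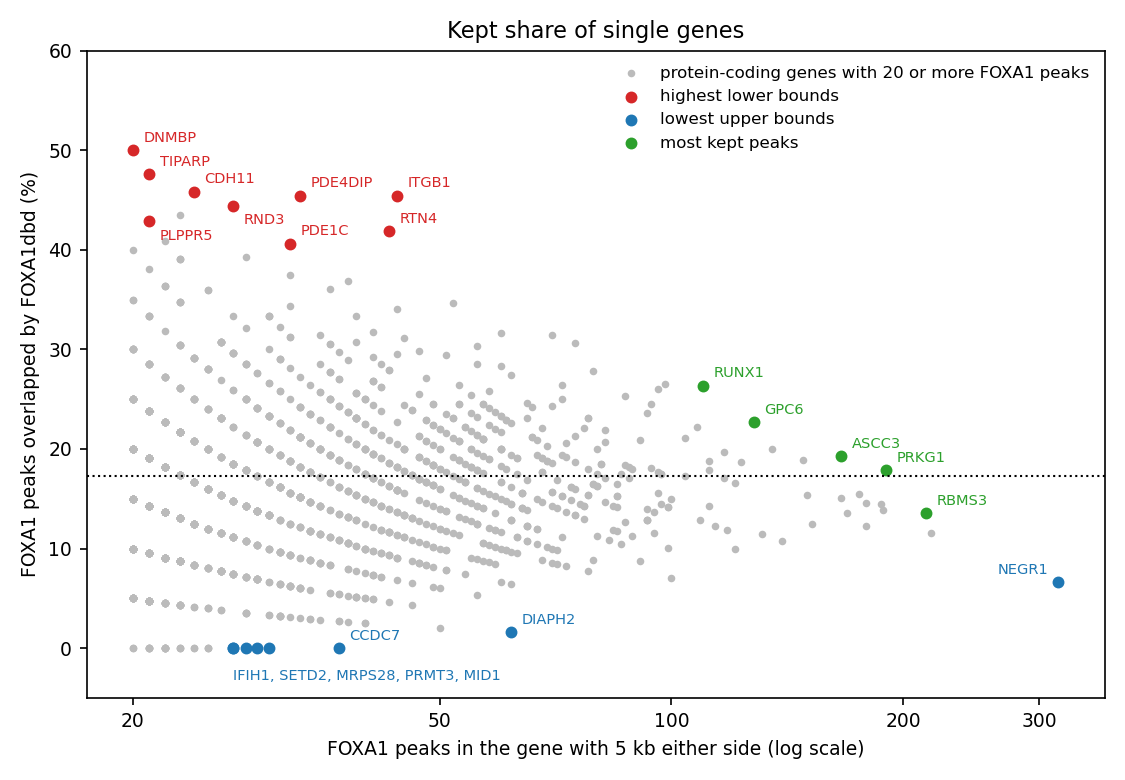
Share of FOXA1 peaks overlapped by FOXA1dbd (vertical axis, percent) against the number of FOXA1 peaks in the gene with 5 kb either side (horizontal axis, log scale), 1 point per protein-coding gene outside chromosome Y with at least 20 FOXA1 peaks. Genes named in the text are coloured by how they were chosen, and the dotted line is the share of all peaks; ITGB1 lies at 45.5%, and NEGR1, with the most peaks (318), lies at 6.60%.

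Gene classes were compared through 22 lists, each peak being counted once per list. The interval lay above the overall share in 4 lists, 18.2%, and below it in none, 0%. The HOX genes, which give cells their position along the body, had 8 of 22 peaks kept, 36.4% (19.7 to 57.0), against an expected 15.3%, and 7 of the kept peaks were in the HOXA cluster, which had 18 FOXA1 peaks. Cytosolic ribosomal protein genes had 36 of 145, 24.8% (18.5 to 32.4), against an expected 17.4%. The only member of this list with at least 10 FOXA1 peaks had none of its 11 kept. A kept peak was found in 24 of the 48 ribosomal genes with a FOXA1 peak, against 7021 of 12518 over all protein-coding genes. This count is not adjusted for the number of FOXA1 peaks per gene. Fibroblast marker genes had 43 of 188, 22.9% (17.5 to 29.4), and integrin and laminin genes 89 of 420, 21.2% (17.5 to 25.4). The intervals of these last 2 lists hold their expected shares, 19.1 and 17.7%.

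Each of the 4 lost its place above the overall share under at least 1 alternative. Without ITGB1 the integrin and laminin list had 69 of 376, 18.4% (14.8 to 22.6), and the ribosomal list without RPL37A had 22.6% (16.4 to 30.3), both holding the overall share. With only the upper 50% of FOXA1dbd peaks by score, none of the 4 stood above, and the HOX genes had 1 of 22, 4.55%, against 8.78% overall. The fibroblast markers' interval came to hold the overall share under 7 alternatives, namely centres within 200 bp, the most frequent FOXA1dbd prefix, chromosomes 1 to 22, the upper 50% of either list by score, gene bodies alone and FOXA1 peaks without HNF4A.

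Among the fibroblast markers 9 of the 12 genes with a FOXA1 peak had a kept one, against 7021 of 12518 over all protein-coding genes. These 12 genes held 188 FOXA1 peaks, and the comparison is not adjusted for the number of peaks per gene. COL1A2, a chain of type I collagen, had 6 of 17 peaks kept (35.3%), COL3A1 6 of 29, DCN, the proteoglycan decorin, 4 of 18, LUM, lumican, 3 of 8, VIM, vimentin, 3 of 5 and TWIST1, a mesenchymal transcription factor, 5 of 19. FBN1, fibrillin, had the most FOXA1 peaks with 12 of 60 kept, 20% (11.8 to 31.8). FAP, a surface protease, kept 3 of 15 and PDGFRB 1 of 2, while PRRX1 and PDGFRA kept none of 7 each and COL6A2 none of 1. The peak lists hold no expression, so the fibroblast label could not be checked with these genes.

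Members of the other matrix and adhesion lists went both ways. Among collagens COL12A1 kept 2 of 32 (6.25%), COL5A2 13 of 80 (16.2%) and COL11A1 6 of 78, 7.69% (3.57 to 15.8), and the list had 16.2% (13.3 to 19.7). FN1, fibronectin, kept 1 of 19 and LOX, which crosslinks collagen, 4 of 12, in a list with 20.4% (16.8 to 24.4). ITGB6 kept none of 11 and LAMA2, a laminin of muscle, 13 of 79. TPM1, tropomyosin, kept 5 of 10, while TLN2, a talin, kept 1 of 23 and LPP 22 of 104, and the actin and focal adhesion list had 18.7% (16.1 to 21.7). In the TGF-beta pathway INHBA, an activin subunit, kept 4 of 10, SMURF2 12 of 52 and the receptor TGFBR1 none of 13, with 19.9% (16.6 to 23.7) for the list.

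Transcription factor lists showed the same spread. TWIST2 kept 5 of 10 and RUNX1 29 of 110, while ZEB1, a repressor of epithelial genes, kept 1 of 40, 2.50% (0.443 to 12.9), and the fibroblast factor list had 16.8% (13.7 to 20.5). Genes of AP-1 subunits had 10 of 62 kept, 16.1% (9.004 to 27.2). Forkhead genes other than FOXA had 18.3% (13.8 to 23.8), with 12 of 68 in FOXP1, 7 of 30 in FOXN3 and 6 of 44 in FOXP2. Liver secreted protein genes, classical FOXA targets in liver, had 10 of 47 kept, 21.3% (11.99 to 34.9), and liver transcription factor genes 7 of 41, 17.1%. Hormone-response genes had 20 of 106, 18.9% (12.6 to 27.3), among them ESR1 with 5 of 24 and NRIP1 with 4 of 25. For none of these lists did the interval leave the overall share, but with the upper 50% of FOXA1dbd peaks by score the forkhead genes lay above it, at 13.5% (9.66 to 18.5) against 8.78%.

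The lowest shares were found in lists of neuronal, zinc-finger and olfactory receptor genes. Neuronal adhesion and synapse genes had the most peaks, with 174 of 1136 kept, 15.3% (13.3 to 17.5), among them GRIK2 with 22 of 179 and DLGAP1 with 14 of 55. Zinc-finger genes of chromosome 19 had 29 of 221, 13.1% (9.29 to 18.2), and olfactory receptor genes of chromosome 11 had 9 of 74, 12.2% (6.53 to 21.5). Their expected shares were also low, at 15.8, 16.2 and 14.2%. With the upper 50% of FOXA1dbd peaks by score the zinc-finger genes' interval lay below the overall share, at 4.98% (2.80 to 8.69).

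**Figure D5:**
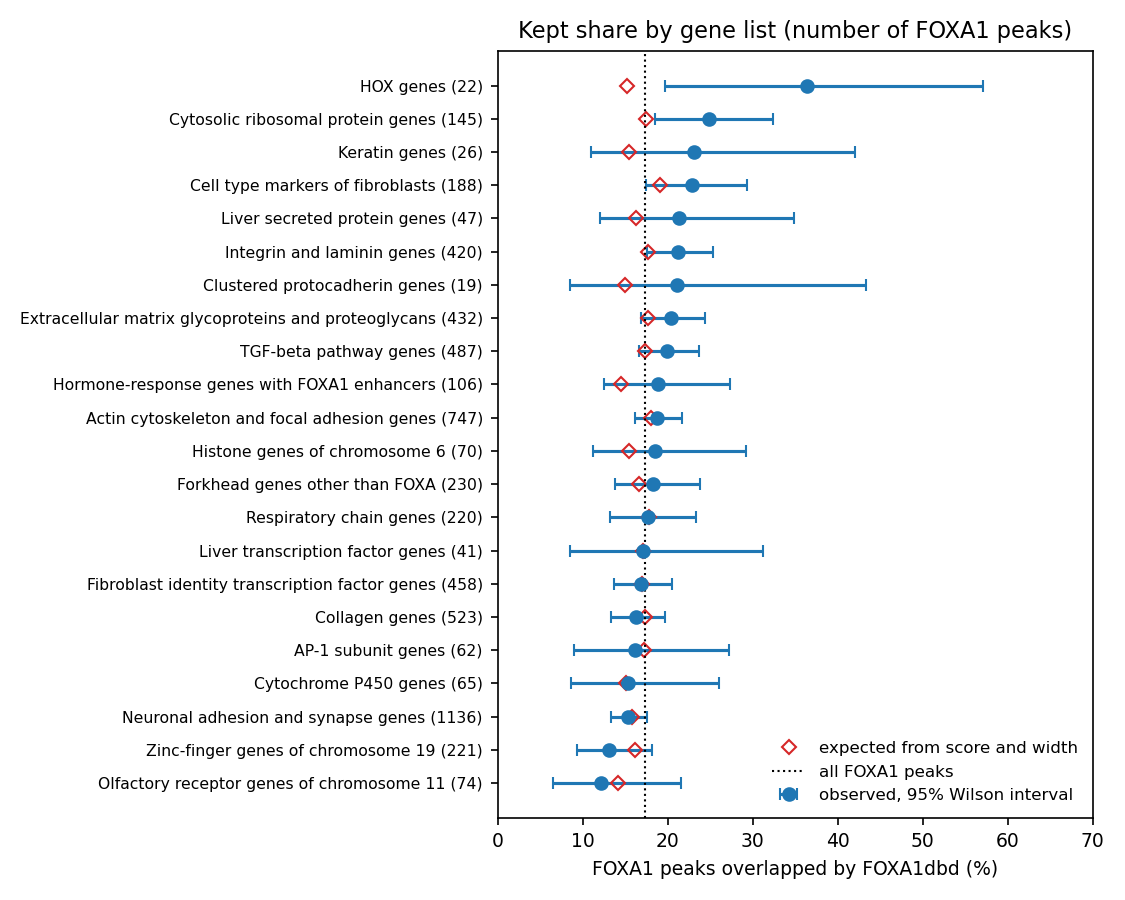
Share of FOXA1 peaks overlapped by FOXA1dbd (horizontal axis, percent) for 22 gene lists, with the number of FOXA1 peaks in brackets; filled circles carry 95% Wilson intervals, open diamonds are the shares expected from score and width, and the dotted line is the share of all peaks. HOX genes lie highest at 36.4% with a wide interval, and olfactory receptor genes lowest at 12.2%.

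Windows of 1 Mb gave a map of domains. Of 1401 windows with at least 50 FOXA1 peaks the interval lay above the overall share in 88, 6.28%, and below in 57, 4.07%. The median window kept 17.2% (quartiles 14.0 and 20.5). The highest was chr10:3000001-4000000, which holds KLF6, a zinc-finger factor of wound response, with 29 of 74 kept, 39.2% (28.9 to 50.6). This window had a mean GC content of 44.1% in the 100 kb around each of its peaks. It had an AP-1 core in 25.7% of its peaks, against a median of 14.9% over windows. It was followed by windows with SAMD12 (35 of 101) and NSMCE2 (26 of 79) on chromosome 8, RHOBTB3 on chromosome 5 (49 of 155) and BCAR3, an adaptor of adhesion signalling, on chromosome 1 (33 of 106). Expected shares in these 5 windows were between 17.6 and 19.4%. Each window is named by its coding gene with most FOXA1 peaks, and the counts above are for the whole window. Within these windows KLF6 itself kept 3 of 7 peaks, SAMD12 11 of 36 and NSMCE2 18 of 52. RHOBTB3 kept 7 of 32 and BCAR3 7 of 31. In the BCAR3 and RHOBTB3 windows the AP-1 core was not frequent, at 11.3 and 14.2%.

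The lowest windows were those of DIAPH2 (1 of 60) and CASK (1 of 54) on chromosome X, and all 3 windows of chromosome X with enough peaks had intervals below the overall share. The intervals of the DIAPH2 and CASK windows hold the 4.95% of the whole chromosome. On chromosome 1 the NEGR1 window kept 19 of 299, 6.35% (4.11 to 9.71). On chromosome 3 the window chr3:47000001-48000000, which holds SETD2 and SMARCC1, a subunit of the SWI/SNF remodeler, kept 4 of 82, 4.88% (1.91 to 11.9). Its mean GC content around peaks, measured in the same way, was 43.2%. This was close to that of the KLF6 window at the other end of the order. The AP-1 share of the SETD2 window was 6.10%.

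The 1095 FOXA1dbd peaks outside FOXA1 peaks lay more often away from genes. Of them 45.0% (42.1 to 48.0) were between genes, against 23.1% of the FOXA1dbd peaks on FOXA1, and 4.11% (3.08 to 5.46) against 9.46% at promoters. A forkhead core was found in 20.6% (18.3 to 23.04) against 22.4%, and a canonical AP-1 core in 20.1% (17.8 to 22.6) against 18.4%. FOXA1nhaa overlapped 10.1% of them, against 57.0% of those on FOXA1, and HNF4A 6.21% against 4.28%. Their median distance to the nearest FOXA1 peak was 15083 bp, and 83 lay within 1000 bp. Their median score was 62 and that of the others 61. The highest-scoring were in introns of CDK14 (231), ZNF717 (192) and IL6R, the interleukin 6 receptor gene (188). Others lay between genes, 29940 bp from the start of ID4 (199), and at the site nearest SHCBP1 printed above (198).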

How the data were processed

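Binding was measured by ChIP-seq against the HALO tag in BJ fibroblasts, and the 5 full peak lists were used as deposited. The submitters' processing notes name Bowtie2 2.3.4.1, Picard, GATK 4.2.6.0, bedtools 2.27.1, MACS2 2.2.7.1, deepTools 3.5.0 and hg19, without role or order. Whether peaks were called per library or on pooled libraries, and how the inputs were used, is not given in the sources used here. The authors' score per peak, the only measurement in the 13 columns of the FOXA1 list, and their fold enrichment (a ratio) in the 10-column lists were used only to describe or bin peaks within a list. The −log10 p-values and −log10 q-values the authors deposited were not used. Read depth is unknown.

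Rows with the same coordinates were counted once. Peaks were placed on GRCh37 with GENCODE 44 lifted to it, after chromosome lengths were checked. Motifs were counted in the central 200 bp around the FOXA1 midpoint. Genes had at least 20 FOXA1 peak centres in the body with 5 kb either side. Named genes were the 10 with the highest lower bounds, the 10 with the lowest upper bounds and the 5 with the most kept peaks; in lists, the member with most peaks and, among members with at least 10, those with the highest and lowest share; the 5 highest and lowest windows; and the 5 strongest peaks of each kind. Of the items these rules name, 1 peak and 1 list member are not reported here. Other list members named were chosen after their values were seen. Chromosome Y genes and windows are not listed. The members and lists were chosen with earlier results of these data known. Code was written in Python 3.11.15 with pandas 2.3.3 and numpy 2.4.6 and tested on simulated peaks.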

Additional observations from a re-analysis of the deposited data

How the results depend on the processing

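No paired analysis was possible because only 1 full list per construct was used, with no replicate values. Sequence and position classes whose interval had excluded the share of all peaks stayed on their side of it under the alternatives run, with 4 exceptions whose interval came to hold it: promoters with the most frequent FOXA1dbd prefix or the upper 50% of FOXA1dbd peaks, and other exons and CpG-rich sequence with the upper 50% of FOXA1 peaks. The shares below moved by more than the interval, and the cause was not tested. Counts of genes, windows and lists have no interval. They depend on how many qualified, so totals of genes and windows are given, and the lists numbered 22 in each setting. With centres within 200 bp the share of FOXA1 peaks overlapped was 16.2%, that of FOXA1dbd peaks on FOXA1 88.4%, and the kept share 17.1% at promoters, 14.5% in other exons, 15.7% in introns, 17.9% between genes, 17.4% in deserts, 19.2% with and 15.5% without a forkhead core, 27.7% with an AP-1 core, 14.3 and 18.4% in the lowest and highest GC quintile, and 18.1 and 14.4% in the lowest and highest density quintile. With rows of the same FOXA1 peak name joined, the overall share was 17.9%, with 17.4% in introns, 17.2% without a forkhead core, 0.0% in CpG-rich sequence, 16.4% at lowest GC, 17.0% at highest density and 43.0% of FOXA1dbd peaks with a shared edge. With FOXA1dbd rows of the most frequent prefix the 2 overlap shares were 15.6 and 96.0%, and the kept share was 16.2% at promoters, 14.2% in other exons, 15.1% in introns, 17.3% between genes, 17.1% in deserts, 18.2% with and 15.05% without a forkhead core, 26.3% with an AP-1 core, 14.3 and 17.1% at lowest and highest GC, and 16.9 and 14.2% at lowest and highest density, with 1 gene list below and 46.5% shared edges. Chromosomes 1 to 22 gave 17.5% overall and 19.2% at lowest density. The upper 50% of FOXA1 peaks gave overlap shares of 23.7 and 66.0%, and kept shares of 25.2% at promoters, 19.2% in coding exons, 22.5% in other exons, 23% in introns, 25.5% between genes, 26.1% in deserts, 27.3% with and 22.8% without a forkhead core, 37.2% with an AP-1 core, 21.6 and 26.0% at lowest and highest GC, and 25.4 and 22.3% at lowest and highest density. In that setting 23 of 649 genes were above and 28 below, and 31 of 495 windows above and 21 below. It had 2 lists above and 1 below, and 21.9% shared edges. The upper 50% of FOXA1dbd peaks gave 8.78% for all peaks, 8.39% at promoters, 6.14% in coding exons, 7.87% in other exons, 8.47% in introns, 10.2% between genes, 10.1% in deserts, 10.4% with and 8.42% without a forkhead core, 15.7% with an AP-1 core, 0.0% in CpG-rich sequence, 7.90 and 9.92% at lowest and highest GC, 9.96 and 7.60% at lowest and highest density, 19 of 1674 genes below, 1 list above, 1 list below and 47.9% shared edges. FOXA1 peaks without HNF4A gave 17.6% at promoters, 16.3% in introns, 18.2% between genes, 16.1% without a forkhead core, 27.4% with an AP-1 core, 0.0% in CpG-rich sequence, 18.1% at lowest density and 18.4% at highest GC. Motifs in the central 100 bp gave 17.0% without a forkhead core and 29.5% with an AP-1 core. The canonical AP-1 core gave 33.7% and the form with A or T at its centre 24.2%. FOXA1dbd rows with no shared edge overlapped FOXA1 in 93.2%. With at least 40 FOXA1 peaks a gene, 23 of 539 genes were above and 26 below. With 500 kb windows, 145 of 2712 were above and 86 below. With gene bodies alone, 2 lists were above. The alternatives on HNF4A, on AP-1 forms and on shared edges were added after seeing the data. With no read counts in the lists, absence of a FOXA1dbd peak means only that the list used has no row there.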

Other observations

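Other cores were compared with the kept share of all peaks, 17.3%. The TEAD core GGAATG, bound by the factors that recruit YAP, gave 19.8% (19.2 to 20.3) of 18597 FOXA1 peaks, and 24.2% (21.9 to 26.5) with 2 or more. The E-box CACCTG, read by SNAIL and ZEB factors, was rare, in 1.84% of FOXA1 peaks against 14.6% of genome tiles, and 21.3% (19.9 to 22.9) of these peaks were kept, with 39.6% (27.0 to 53.7) of the 48 that held 2 or more. The RUNX core TGTGGTT gave 18.04% (17.2 to 18.9), the C/EBP core TTGCNNAA 16.8% (16.4 to 17.3) and the nuclear factor I site TTGGCA 16.6% (16.1 to 17.2). The SP/KLF core GGGCGG of CpG-rich promoters gave 14.3% (11.3 to 17.9) of 441 peaks, and the ETS core CCGGAAG 23.9% (18.3 to 30.6) of 184. The CTCF core AGGGGGCGC was found in 13 FOXA1 peaks, of which 5 were kept, 38.5% (17.7 to 64.5).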
